A study of Mus musculus with 5 samples.

Results

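The small leucine-rich proteoglycans are secreted matrix proteins whose horseshoe-shaped cores, built of leucine-rich repeats, bind collagen fibrils. The 9 members described here, of 14161 genes listed in any library, were taken by symbol: biglycan (Bgn), decorin (Dcn) and asporin (Aspn) of class I, lumican (Lum), fibromodulin (Fmod), prolargin (Prelp) and osteomodulin (Omd) of class II, osteoglycin (Ogn) of class III and podocan (Podn) of class V. All 9 were listed in at least 1 library. The RNA came from bone mesenchymal stem cells, cultured stromal cells of the mouse femur with the capacity to form skeletal tissue and fat. The 5 libraries comprised 3 of Bmal1-knockout cells (Bmal1-/-) and 2 of wild type cells. All cells came from C57BL/6 mice of 6 to 8 weeks and were grown in α-MEM with 12% serum for 1 to 3 passages. Whether the deletion is germline or conditional, and whether replicates came from separate animals or cultures, is not stated in the labels, so p-values measure the spread between these libraries, which may be technical.

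As background, the core proteins set the width and spacing of collagen fibrils, and most carry chondroitin, dermatan or keratan sulfate chains. Several also hold growth factors of the TGF-beta family in the matrix. Soluble biglycan and decorin can act on surface receptors, among them Toll-like receptors and receptor tyrosine kinases. In bone, biglycan is known for its part in matrix formation and mineralisation, and osteomodulin for its presence in mineralised matrix. BMAL1 (gene symbol Arntl) is, with its partner CLOCK, the activating factor of the circadian clock, and the study asked which genes depend on it in these cells.

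Depth was low: expected counts came to 226695, 237088 and 281990 for the knockout and to 243072 and 211623 for the wild type libraries. A single count was worth 4.05 to 5.31 CPM, that is, counts per 1000000 of a library's TMM-scaled total over tested genes. Arntl, the gene named as knocked out, was counted 4, 1 and 2 times in the knockout libraries, against 5 and 0 in the wild type libraries. These counts do not separate the genotypes, so the labels could not be checked on this gene. Of 3710 genes tested with edgeR's quasi-likelihood test, 304 (8.19%) were higher and 302 (8.14%) lower in the knockout libraries at an adjusted p under 0.05. All 15 stromal markers were listed, and so were 19 macrophage markers. The macrophage markers summed to 11143 to 12381 CPM in the knockout and 18097 to 18609 CPM in the wild type libraries, so macrophage transcripts were present in both genotypes.

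Together the 9 members were higher in the knockout libraries. Their summed level was 1504, 1440 and 1246 CPM in the knockout libraries, against 578 and 510 CPM in the wild type libraries, with no overlap. The means were 1397 ± 134 CPM (SD, n = 3) in the knockout and 544 ± 47.8 CPM (n = 2) in the wild type libraries, a ratio of 2.57. Without biglycan, the sum of the others was 489 ± 87.0 CPM in the knockout and 167 ± 63.1 CPM in the wild type libraries. The family took 0.109% to 0.138% of all expected counts in the knockout libraries and 0.0453% to 0.0506% in the wild type libraries. Biglycan and osteoglycin rose past the test. Decorin, the third member with enough counts to be tested, did not pass, and the other 6 were too low to test. Every knockout library lay above both wild type libraries in CPM for 6 of the 9 members (Bgn, Dcn, Ogn, Fmod, Prelp and Omd), whereas 21.2% of all tested genes and 12.7% of untested genes with 5 to 40 counts had that order. The reverse order was found in Lum (1, 1 and 0 counts against 4 and 1) and in 21.6% of tested genes. The untested genes were not matched to the counts of the members, and the members were chosen with earlier results of these data known. The shares therefore do not measure how unusual 6 of 9 is. In bulk RNA, more cells that make a transcript and more transcript per cell cannot be told apart.

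**Figure D1:**
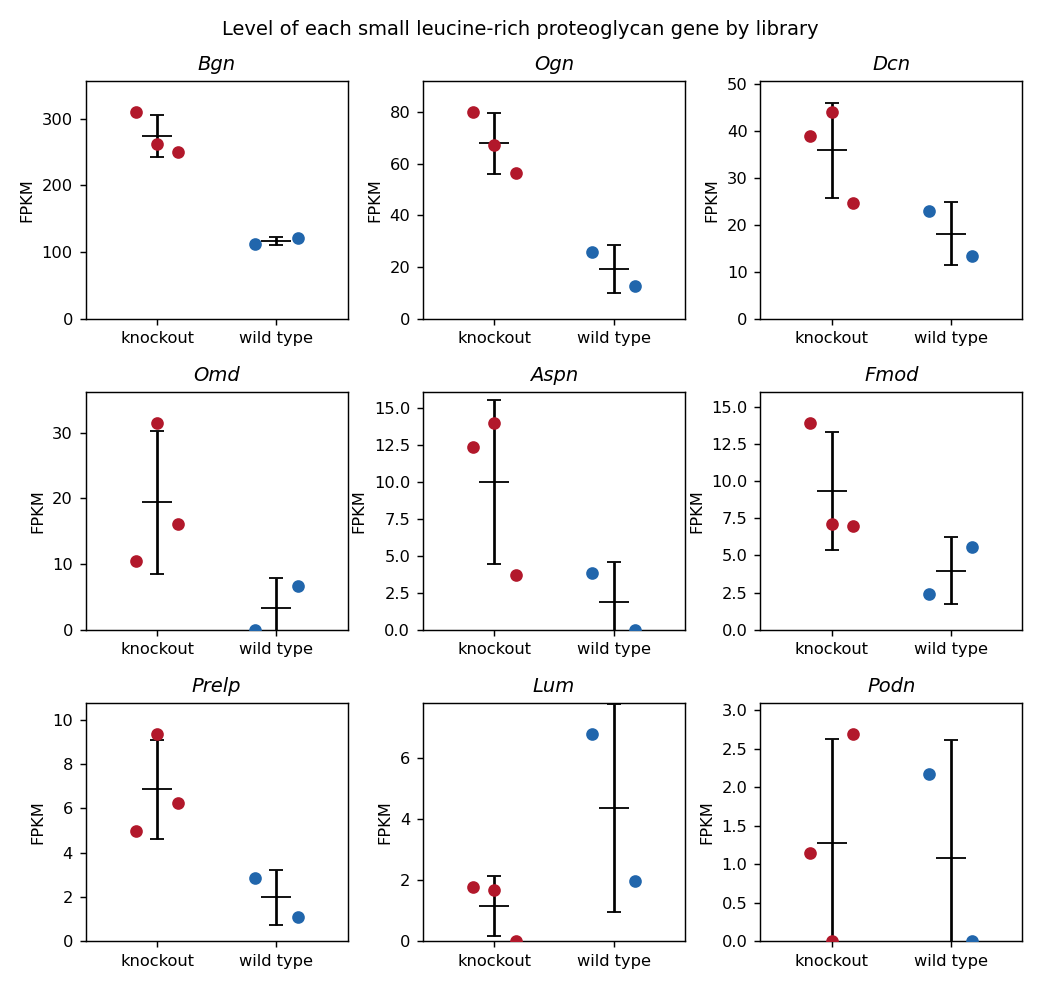
Each panel plots 1 member's FPKM (fragments scaled by gene length and depth, the deposited values) in every library, with 3 knockout libraries at left and 2 wild type libraries at right; bars give the mean and SD. Biglycan and osteoglycin sit clearly apart between groups, decorin sits close between its lowest knockout value of 24.6 and its higher wild type value of 22.9, and Lum is the member with the higher wild type mean.

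Biglycan (Entrez gene 12111, chromosome X, 73483601 to 73495936, mm10) is a class I core protein that carries chondroitin or dermatan sulfate chains. It had 206, 185 and 211 counts in the knockout libraries, against 78 and 73 in the wild type libraries. All 3 knockout values were far above both wild type values, and the replicates of each genotype lay close together. The level was 908 ± 72.2 CPM (SD, n = 3) in the knockout and 377 ± 15.2 CPM (n = 2) in the wild type libraries. The fold was 2.40 (log2 fold change 1.26, SE 0.16; edgeR adjusted p = 8.94e-14). By adjusted p it ranked 21 of the 304 higher genes, and by size of the fold 120. The log2 fold change stayed between 1.16 and 1.31 in all 16 alternative settings, each past the test.

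Osteoglycin, also called mimecan (Entrez gene 18295, chromosome 13, 49608015 to 49624501, mm10), is a class III member of bone and connective tissue. It had 56, 50 and 50 counts in the knockout libraries, against 19 and 8 in the wild type libraries. The lowest knockout library stood well above the higher wild type library, while the 2 wild type libraries themselves differed. The level was 236 ± 33.4 CPM (n = 3) in the knockout and 65.9 ± 33.1 CPM (n = 2) in the wild type libraries, a 3.48-fold difference (log2 fold change 1.80, SE 0.31; edgeR adjusted p = 2.98e-07). Left without wild type 1 the log2 fold change was 2.43, and without wild type 2 it was 1.39, both past the test. By size it ranked 41 of the 304 higher genes. Whether osteoglycin differed between genotypes more than biglycan was not tested.

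Decorin (Entrez gene 13179, chromosome 10, 97479500 to 97518163, mm10), the class I member that binds along collagen fibrils and limits their growth, had 20, 24 and 16 counts in the knockout libraries, against 12 and 6 in the wild type libraries. The groups did not overlap in CPM, but the lowest knockout value, 64.7 CPM, was close to the higher wild type value, 56.4 CPM. The means were 91.6 ± 25.0 CPM in the knockout and 44.1 ± 17.3 CPM in the wild type libraries. The log2 fold change was 1.008 (SE 0.42), with an edgeR p of 0.0153 before and 0.0783 after adjustment, so it did not pass. Left without knockout 3 it reached 1.22 (edgeR adjusted p = 0.0464) and passed; in the other 15 alternatives it did not.

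**Figure D2:**
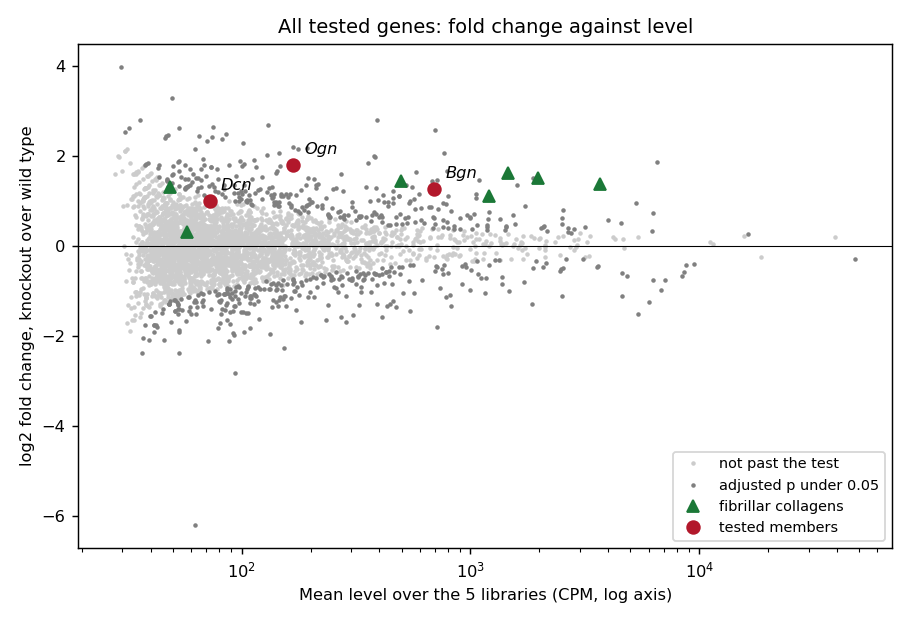
Each point is a tested gene, with its mean level over the 5 libraries (CPM, log axis) across and its log2 fold change, knockout over wild type, up; red circles are the 3 tested members and green triangles the 7 tested fibrillar collagens. The collagens that passed run between 1.11 and 1.63; biglycan at 1.26 lies within that range, osteoglycin at 1.80 lies above it at a lower level than any of them, and decorin at 1.008 lies among lower-count genes.

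The start regions of the 2 genes that passed, and of the 2 neighbours of osteoglycin on chromosome 13, are shown because CLOCK and BMAL1 are known to bind the E-box CACGTG. The 250 bases before the annotated start are from RefSeq, build GRCm38.p6, plus strand: chrX:73483351-73483600 for Bgn, chr13:49607765-49608014 for Ogn, chr13:49582212-49582461 for Omd and chr13:49544193-49544442 for Aspn. Capitals mark CANNTG, the general E-box, of which CACGTG is one form.
Bgn: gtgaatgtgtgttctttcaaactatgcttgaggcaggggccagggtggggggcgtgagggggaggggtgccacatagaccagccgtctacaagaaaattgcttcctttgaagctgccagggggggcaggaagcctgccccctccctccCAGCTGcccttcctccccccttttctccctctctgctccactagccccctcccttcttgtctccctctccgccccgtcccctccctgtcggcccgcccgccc
Ogn: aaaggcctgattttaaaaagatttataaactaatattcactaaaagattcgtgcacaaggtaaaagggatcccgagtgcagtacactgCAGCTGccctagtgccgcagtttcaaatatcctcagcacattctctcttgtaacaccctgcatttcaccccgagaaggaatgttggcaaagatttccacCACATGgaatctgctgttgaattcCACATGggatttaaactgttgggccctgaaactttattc
Omd: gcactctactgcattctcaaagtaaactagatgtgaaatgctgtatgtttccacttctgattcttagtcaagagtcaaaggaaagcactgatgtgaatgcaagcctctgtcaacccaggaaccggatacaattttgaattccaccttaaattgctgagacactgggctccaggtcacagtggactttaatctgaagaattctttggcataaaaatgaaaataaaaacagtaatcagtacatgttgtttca
Aspn: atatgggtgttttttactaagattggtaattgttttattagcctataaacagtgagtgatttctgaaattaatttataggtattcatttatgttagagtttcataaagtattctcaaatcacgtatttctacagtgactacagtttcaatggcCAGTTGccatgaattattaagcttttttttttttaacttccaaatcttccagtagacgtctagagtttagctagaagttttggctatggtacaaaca
A search of both strands found CACGTG in none of these 4 windows, nor in those of Fmod, Prelp and Podn, the other members with an entry. The Prelp window (133921402 to 133921651) lies inside the span of that gene, as does the Podn window at 108030987 to 108031236. Neither covers the bases before the outer start of its gene. CACGTG is held by 6.02% of all 32851 RefSeq windows of this length. CANNTG was found 3 times before Ogn and once each before Bgn and Aspn, and not before Omd. It occurs in 66.2% of all windows. A match is a description of the letters, and a window without one says nothing of sites elsewhere.

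Osteomodulin and asporin, the neighbours of osteoglycin, had few counts. Omd (chromosome 13, 49582462 to 49592612), also called osteoadherin, a class II protein of mineralised matrix, had 4.95, 15.85 and 9.61 expected counts in the knockout libraries, against 0 and 2.81 in the wild type libraries. Every knockout library was above both wild type libraries, and the 3 knockout values were spread widely. The ratio of depth-scaled summed counts was 6.23. Its exact 95% Poisson interval ran from 1.94 to 31.8 and, like all such intervals here, covers counting error only. Without wild type 1 the ratio was 2.92, with an interval of 0.911 to 14.9 that includes 1; without wild type 2 the wild type count was 0, and the interval began at 2.53. Fitted across all genes with no count filter, Omd passed (edgeR log2 fold change 2.57, adjusted p = 0.0277). Aspn, Prelp, Fmod, Lum and Podn did not pass in that fit (edgeR adjusted p = 0.21 to 0.965). With log2(FPKM + 1) and no filter, Omd was at 2.75 and did not pass. Its counts are the 1 set among the members that is not whole, and 6.46% of the 31-base words in its GENCODE transcripts also occur in other genes' transcripts.

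Aspn (chromosome 13, 49544443 to 49567565), a class I protein that binds collagen and TGF-beta, had 8, 11 and 3 counts in the knockout libraries, against 3 and 0 in the wild type libraries. Knockout 3 and wild type 1 had the same count, so the groups overlapped. The ratio was 4.42 (1.33 to 23.1). The interval included 1 without knockout 2, at 3.23 (0.853 to 18.03), and without wild type 2, at 2.35 (0.705 to 12.2). Leaving out wild type 1 left 0 wild type counts and an interval that began at 1.55.

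Among the other class II members, Prelp and Fmod lie 107151 bases apart on chromosome 1 and Lum lies beside Dcn on chromosome 10. Prolargin, which links basement membranes to collagen (Prelp, 133910304 to 133930102), had 5, 10 and 8 counts in the knockout libraries, against 3 and 1 in the wild type libraries. All knockout counts exceeded both wild type counts, at a ratio of 3.46 (1.18 to 13.8). The interval included 1 without knockout 2, at 2.86 (0.884 to 12.1), and without wild type 2, at 2.45 (0.741 to 12.8). Without wild type 1 the ratio was 6.50 (1.06 to 268). Of the exon bases of Prelp, 350 lie opposite the antisense gene Gm15851, which has no row of its own in these libraries, and without a stated strand setting such reads cannot be told apart.

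Fibromodulin, which takes part in fibril assembly (Fmod, 134037254 to 134048280), had 11, 6 and 7 counts in the knockout libraries, against 2 and 4 in the wild type libraries. The groups did not overlap, but the ratio of 2.41 had an interval of 0.960 to 7.21, which includes 1. The interval lay above 1 without knockout 2, at 2.64 (1.005 to 8.13), and without knockout 3, at 2.72 (1.021 to 8.41), and without wild type 2 the ratio was 3.84 (0.953 to 33.5). Lumican, a keratan sulfate core protein known from cornea and skin (Lum, 97565501 to 97572703), had 1, 1 and 0 counts in the knockout libraries, against 4 and 1 in the wild type libraries. With all 5 libraries it was the 1 member with a ratio below 1, at 0.241, and its interval of 0.0230 to 1.47 includes 1. Wild type 1 held 4 of its 5 wild type counts; without that library the ratio was 0.565, and without knockout 3 it was 0.383. Podocan (Podn, chromosome 4, 108014793 to 108031954) had 1, 0 and 3 counts in the knockout libraries, against 2 and 0 in the wild type libraries, at a ratio of 1.205 (0.173 to 13.3). That ratio turned below 1 without knockout 3 (0.479) and without wild type 2 (0.640). Neither Lum nor Podn showed a difference detectable at this depth.

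**Figure D3:**
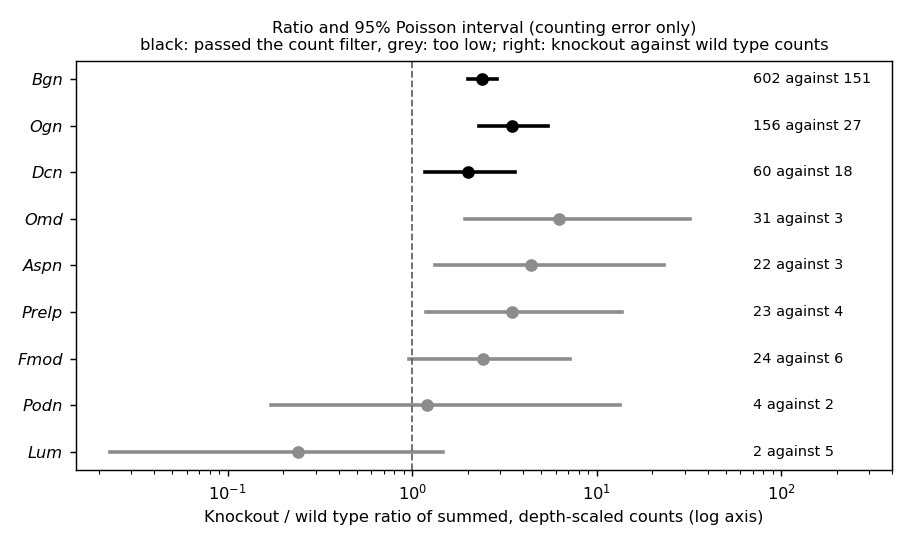
For each member, the point is the knockout to wild type ratio of summed, depth-scaled counts (log axis) and the line its exact 95% Poisson interval, which covers counting error only; the summed counts stand at right. The intervals of Bgn, Ogn, Dcn, Omd, Aspn and Prelp lie above 1, those of Fmod, Podn and Lum include 1.

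Of the 6 members too low to test, 3 (Omd, Aspn and Prelp) thus had an interval above 1, and none had one below 1. Among the 6995 untested genes of 5 to 40 counts, a range that holds all 6, 3.79% had an interval above 1 and 4.67% one below 1. These genes were not matched to the counts of Omd, Aspn and Prelp (33.22, 25 and 27 over all libraries). The shares therefore do not measure how unusual 3 of 6 is. The Poisson interval leaves out the spread between replicates, and for Omd, Aspn and Prelp it depended on single libraries, as given above.

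The family's level was carried by few members. In FPKM, which divides by gene length and so allows genes to be compared, biglycan led in the knockout libraries with 274 ± 31.5 (SD, n = 3) and in the wild type libraries with 116 ± 6.12 (n = 2). Osteoglycin followed with 68.0 ± 11.9 in the knockout and 19.3 ± 9.46 in the wild type libraries. Decorin had 35.8 ± 10.1 FPKM in the knockout and 18.1 ± 6.68 in the wild type libraries. In the knockout libraries these 3 ranges did not overlap each other. In the wild type libraries the ranges of osteoglycin (12.6 to 26.0) and decorin (13.4 to 22.9) overlapped. Below them in the knockout libraries came Omd (19.4 ± 10.8), Aspn (10.01 ± 5.54), Fmod (9.34 ± 3.95) and Prelp (6.86 ± 2.26), each overlapping its neighbour in the order, Omd that of decorin too, and then Podn and Lum at under 3 FPKM in every library. In the wild type libraries the 6 lowest members all lay between 0 and 6.78 FPKM, and each overlapped the next. The lengths the authors listed for Dcn (1829 to 1902 bases) and Aspn (2345 to 2718 bases) vary between libraries, which moves their FPKM.

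Biglycan made up 65.4%, 59.96% and 68.2% of the members' summed FPKM in the knockout libraries, against 62.6% and 74.6% in the wild type libraries. The genotypes overlapped, so the share of biglycan did not separate them. Osteoglycin made up 16.9%, 15.4% and 15.4% in the knockout libraries, against 14.5% and 7.77% in the wild type libraries. All 3 knockout shares were higher, by little over wild type 1. By expected counts the osteoglycin share in wild type 2 was 8.33%, with an exact binomial interval of 3.67% to 15.8%, and in wild type 1 it was 15.4% (9.56% to 23.1%), both counting error only.

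**Figure D4:**
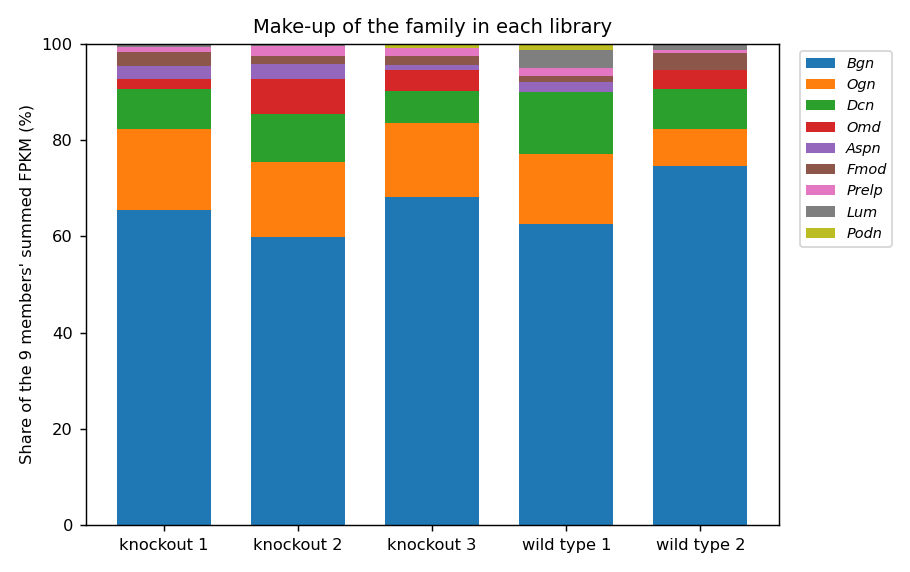
Stacked bars give each member's share of the 9 members' summed FPKM (%) in the 3 knockout libraries at left and the 2 wild type libraries at right. Biglycan takes between 59.96% and 74.6% in every library and osteoglycin between 7.77% and 16.9%, lowest in wild type 2.

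Several members lie in clusters of the family. On chromosome 13, Ecm2, Aspn, Omd and Ogn follow each other with gaps of 11653, 14896 and 15402 bases and no coding gene between them, all inside the span of Cenpp, a centromere protein gene on the other strand. Cenpp shares 7 exon bases with Aspn and none with Omd or Ogn, and it had 1, 2 and 2 counts in the knockout libraries, against 1 and 1 in the wild type libraries. Summed, the 4 family genes of this cluster held 336, 375 and 275 CPM in the knockout libraries, against 103 and 63.8 CPM in the wild type libraries, and did not overlap. On chromosome 10, Dcn and Lum lie 47337 bases apart, ahead of Kera and Epyc. Their sum was 101, 119 and 64.7 CPM in the knockout libraries, against 75.2 and 37.2 CPM in the wild type libraries, and overlapped. On chromosome 1, Prelp and Fmod, with Optc next to Prelp, summed to 76.9, 76.1 and 60.7 CPM in the knockout libraries, against 23.5 and 26.6 CPM in the wild type libraries, with no overlap.

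Of the 9 other genes of the family, 6 were listed and none reached the count filter. Keratocan (Kera), epiphycan (Epyc) and opticin (Optc), known from cornea, cartilage and eye, had no row in any library. Podnl1, the relative of podocan, had 9 counts in the knockout libraries against 1 in the wild type libraries, a ratio of 5.42 (0.751 to 238), which was 2.54 without wild type 1. Ecm2, a matrix protein related to the family, had a rounded 8 counts against 1, a ratio of 4.82 (0.646 to 214), which was 2.26 without wild type 1 and 2.88 without knockout 3. Nyx (7 against 6 counts), Chad (5 against 3), Chadl (10 against 5) and Tsku (7 against 3) had intervals that include 1 as well.

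For each tested member, the genes with the most similar profile over the 5 libraries were found among 2932 tested genes of at least 50 CPM, by the root mean square difference of centred log2 CPM. For biglycan these were Col4a1, a basement membrane collagen chain (difference 0.06), Col3a1, the type III fibrillar chain (0.075), and the chemokine Cxcl12 (0.080). Col3a1 had 4882 ± 218 CPM in the knockout and 1874 ± 92.8 CPM in the wild type libraries. For osteoglycin they were Col8a1, a short-chain collagen (0.15), Idua, a lysosomal enzyme that breaks down dermatan and heparan sulfate (0.17), and Myl9, a myosin light chain (0.18). Col8a1 had 504 ± 54.8 CPM in the knockout and 138 ± 37.3 CPM in the wild type libraries. Idua rose by 1.89 (log2; edgeR adjusted p = 0.00354) and missed the threshold without wild type 2 (1.39), whereas it was at 2.74 without wild type 1. For decorin they were Fgf7, a fibroblast growth factor (0.085), Leprot (0.14) and the transcript G530011O06Rik (0.14), none of which passed. The 3 members differed from each other by 0.36 to 0.46. These pairs were fixed, whereas the neighbours were the closest of 2932 genes, so the 2 sets of differences cannot be compared.

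Fibrillar collagens, the ligands of these proteins, rose with them. All 9 fibrillar chains were listed. Of the 7 tested chains 5 rose, 2 missed the threshold and none fell, and the median log2 fold change was 1.38 beside 0.01 over all tested genes. Summed, they held 11937 ± 561 CPM in the knockout and 4524 ± 225 CPM in the wild type libraries, a ratio of 2.64. Col1a1, a chain of type I collagen, had a log2 fold change of 1.63, Col1a2, its partner, 1.51, and Col3a1 1.38 (edgeR adjusted p = 1.76e-32, 2.40e-32 and 3.85e-33). In FPKM, the members came to 29.6%, 30.99% and 26.7% of the fibrillar collagens in the knockout libraries, against 33.1% and 27.6% in the wild type libraries. This proportion overlapped between genotypes. Against Col1a1 alone, biglycan came to 125%, 121% and 99.6% in the knockout libraries and to 168% and 132% in the wild type libraries, without overlap. Osteoglycin came to 32.4%, 31.1% and 22.4% of Col1a1 in the knockout libraries, against 38.9% and 13.7%, with overlap.

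The enzymes that build the sugar chains showed no call. Of 6 enzymes that start the chain all were listed and 1 was tested, Xylt2, a xylosyltransferase, at a log2 fold change of -0.44 (edgeR adjusted p = 0.346). Of 16 chondroitin and dermatan sulfate enzymes 14 were listed and 2 tested, and Dse, the epimerase that forms dermatan sulfate, was at 0.17 (edgeR adjusted p = 0.835). Of 9 keratan sulfate and tyrosine sulfation enzymes 7 were listed and 2 tested, and B4galt1, a galactosyltransferase, was at -0.27 (edgeR adjusted p = 0.651). The medians of the 1, 2 and 2 tested genes were -0.44, -0.14 and -0.17, too few to stand for their lists. With the untested genes, the lists summed to 181 ± 31.7, 293 ± 39.3 and 181 ± 7.76 CPM in the knockout libraries. In the wild type libraries the sums were 208 ± 31.2, 254 ± 13.2 and 208 ± 28.7 CPM. Each sum overlapped between genotypes. Most of these enzymes were too low to test, so a difference of moderate size was not detectable at this depth.

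Of 24 other proteoglycans 17 had rows and 10 could be tested. Past the test were 2 that rose and 1 that fell, and the median of the 10 was 0.24. Hspg2, the basement membrane proteoglycan perlecan, rose by 1.56 (log2; edgeR adjusted p = 0.00128) but missed the threshold without wild type 1 (0.85), whereas it was at 2.71 without wild type 2. Sdc2, the membrane proteoglycan syndecan-2, rose by 0.98 but missed it when either wild type library was dropped (0.99 and 0.94). Srgn, serglycin, the granule proteoglycan of blood cells, fell by 1.21 but missed it without knockout 1 (-0.75) and without wild type 1 (-0.84). Versican (Vcan), a large matrix proteoglycan, was at 0.38 and did not pass.

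Of 12 genes for proteases that cut or mature these core proteins, or help to, 10 had rows and 8 could be tested. Among these 8, with a median of 0.73, 3 rose and 1 fell. Pcolce, the enhancer of procollagen C-proteinase, rose by 2.49 (log2; SE 0.46, edgeR adjusted p = 1.96e-06), with 128 ± 22.9 CPM in the knockout and 22.7 ± 5.50 CPM in the wild type libraries. Bmp1, the proteinase that removes the biglycan propeptide, was at 0.75 and did not pass (edgeR adjusted p = 0.0745). Adamts5, an aggrecanase, rose by 2.44, and Mmp9, a gelatinase, fell by 0.66; both missed the threshold without wild type 2 (1.87 and -0.58). Without wild type 1 Adamts5 was at 3.57. Mmp3, stromelysin 1, rose by 1.42 and missed it when either wild type library was dropped (1.57 and 1.28); the study chose it on these samples, so it is not independent evidence.

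Of 19 receptors and growth factors known to meet these proteins all had rows and 9 could be tested. Only 1 of the 9 passed, and their median was 0.21. Tgfbr2, the type II TGF-beta receptor, fell by 0.79 (edgeR adjusted p = 0.0498), but not when knockout 2, knockout 3 or either wild type library was dropped (-0.85 to -0.74). The Toll-like receptors bound by biglycan, Tlr2 at -0.65 and Tlr4 at -0.38, did not pass.

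Among the markers of these cell types that passed the test, the stromal ones rose and the macrophage ones fell. Of the 15 stromal markers 9 could be tested, with a median of 0.39. No stromal marker fell, 6 missed the threshold and 3 rose: Cxcl12 (1.31), Serpinf1, the secreted factor PEDF (2.18), and Cdh11, a mesenchymal cadherin (1.37). The 15 stromal markers summed to 2653 ± 206 CPM in the knockout and 1578 ± 187 CPM in the wild type libraries, a ratio of 1.68. That sum includes Cxcl12 (726 against 292 CPM), Serpinf1 (282 against 61.2), Cdh11 (284 against 111) and Itgb1 (744 against 578), which missed the threshold. Untested, in counts summed per genotype, were Thy1 (2 against 3), Nt5e (11 against 9) and Eng (21 against 12). Lepr (10 against 5), S100a4 (25 against 10) and Twist1 (15 against 4) were untested too. The mesenchymal growth factor receptors Pdgfra (-0.34) and Pdgfrb (0.15) missed the threshold. All 19 macrophage markers could be tested, with a median of -0.63. Of these, 9 fell, 10 missed the threshold and none rose. Mpeg1, a pore-forming macrophage protein, fell by 0.98, Lyz2, a lysozyme, by 0.67, and Ctss, a lysosomal protease, by 0.86. Adgre1, whose groups overlapped, missed the threshold without knockout 2 (-0.33) and without knockout 3 (-0.38). Cd68 also missed it in both fits (-0.57 and -0.64), and Itgam without knockout 2 (-0.40). Without wild type 1, Adgre1 was at -0.27, Cd68 at -0.48 and Itgam at -0.56. Without wild type 2, all 9 kept a negative log2 fold change, but 5 missed the threshold: Cd14 (-0.81), Cd68 (-0.80), Csf1r (-0.73), Itgam (-0.57) and C1qa (-0.45). Their part in the values of the members was not tested.

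**Figure D5:**
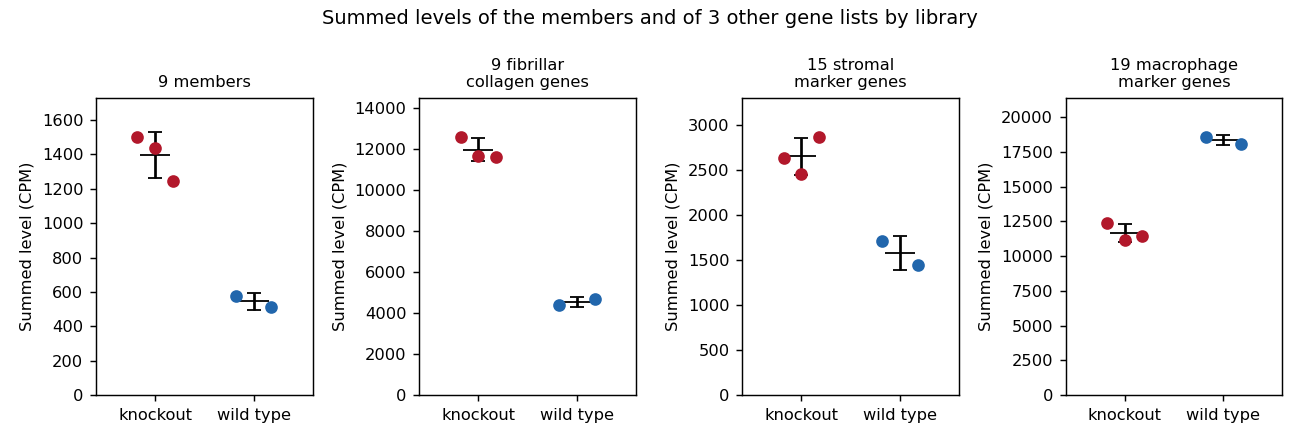
Panels give the summed level (CPM, axes from 0) of the 9 members, the 9 fibrillar collagen genes, the 15 stromal markers and the 19 macrophage markers in each library, knockout at left and wild type at right, with mean and SD. The first 3 sums are higher in every knockout library and the macrophage sum is lower in every knockout library.

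Markers of lineages in which single members are known were uneven. Of 15 osteoblast, tendon and cartilage markers 10 were listed and 4 tested, and 3 rose with a median of 1.14: Sparc, the bone matrix protein osteonectin (1.502), Tnc, tenascin C (0.78; past the threshold in fits with both wild type libraries and not with 1), and Alpl, the alkaline phosphatase of mineralisation. Alpl had 18, 15 and 19 counts in the knockout libraries, against 3 and 0 in the wild type libraries, a ratio of 10.4 (3.38 to 52.3). Its log2 fold change of 3.29 (edgeR adjusted p = 7.46e-06) was 2.42 without wild type 2, still past the threshold, and without wild type 1 no wild type count was left for a fold. Osteopontin (Spp1) missed the threshold at -0.02. Bglap, Tnmd, Thbs4, Sox9 and Matn3 had no row in any library. The osteoclast list had 4 of 7 genes listed and 2 tested, with a median of -0.98, and Acp5, the acid phosphatase of osteoclasts and macrophages, fell by 1.35 but missed the threshold without wild type 1 (-0.89). Of 21 other blood cell markers 8 were listed and 1 tested, Pf4, a platelet chemokine, which fell by 0.66 but missed it when knockout 2 or either wild type library was dropped (-0.72 to -0.62). Of the 6 endothelial markers all were listed and 2 tested, with a median of -0.18, and of 8 adipocyte markers 6 were listed and 2 tested, with a median of 0.76. None of these 4 genes passed: Pecam1, an endothelial adhesion molecule, was at -0.37, and Lpl, the lipase of fat cells, at 0.65.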

How the data were processed

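Each library's table as deposited gives, per the file headers, a length in bases, an expected count and an FPKM for every gene. The submitters' processing notes name the tools HISAT2, StringTie, Bowtie2 and RSEM and mm10 as the build, without versions or roles; no strand setting is stated. Libraries listed 10785 to 11493 genes, and absent genes were set to 0. Of the expected counts deposited, 93.8% to 94.2% were whole within 0.005. The deposited FPKM values served to compare genes with each other. No pair of libraries held identical values.

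Rounded expected counts of all genes were fitted with edgeR 4.0.16 (R 4.3.3). The filter was filterByExpr (at least 10 counts, 15 in all), the scaling TMM and the model a robust quasi-likelihood fit on genotype, with Benjamini-Hochberg adjusted p over the 3710 tested genes and a threshold of 0.05. The procedure was tested on simulated data. Standard errors came from the quasi-likelihood F. Members under the filter were given as ratios of summed counts with exact 95% Poisson intervals and no test. Positions are from RefSeq (GRCm38.p6), overlaps and shared 31-base words from GENCODE M21. Limma 3.58.1 and DESeq2 1.42.0 served for alternatives.

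The members and the 15 gene lists were chosen with earlier results of these data known. Named were all members, family genes with any count, Arntl, up to 3 called genes per list and direction (otherwise the tested gene with the highest level) and the 3 nearest profiles of each tested member. Further genes given, such as Dse, Vcan, Bmp1, Tlr2, Tlr4, Pdgfra, Pdgfrb, Spp1 and Cenpp, stand outside this rule. The macrophage list also held Emr1, the older symbol of Adgre1, which is not counted.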

Additional observations from a re-analysis of the deposited data

How the results depend on the processing

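Biglycan and osteoglycin stayed past the test in all 16 alternatives, with log2 fold changes of 1.16 to 1.31 and 1.39 to 2.43 and adjusted p up to 0.00701 and 0.0407. With each library left out in turn, 2 to 3 members rose and 0 fell. Genes higher numbered 144 to 323 and genes lower 146 to 287 in those 5 fits, and the fixed lists held 12 to 17 genes higher and 6 to 13 lower, beside 16 and 14 with all libraries; fewer libraries were fitted there. With DESeq2, 145 genes were higher and 126 lower, with log2(FPKM + 1) 177 and 174, with log2(FPKM + 10) 186 higher, and with log2(FPKM + 1) and no filter 83 and 72; the cause was not tested. With the replicate number as a block, 229 were higher and 212 lower, Bgn was at 1.31, Dcn at 1.23 and Ogn at 1.93, and no call on a member changed. Knockout 3 has no wild type library of its number, so it added nothing to the genotype difference in that fit. Same-numbered deviations correlated at -0.008 and 0.026. With 2 wild type libraries the crossed pairs only flip the sign (0.008 and -0.026). This check therefore cannot decide whether the numbers pair the libraries. In FPKM the mean osteoglycin share of the family in the knockout libraries was 15.9%, against 16.9% by expected counts. Depth limits the 6 low members: 0 counts in a library allow up to 12.1 to 15.9 CPM (3 counts).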
